A study of Homo sapiens with 2 samples.

Results

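The genes examined belong by symbol to mitochondrial protein import or to the SLC25 carriers, most of which move metabolites across the mitochondrial inner membrane. They were taken as every protein-coding gene of the RefSeq GRCh38 gene table whose symbol starts with TOMM, TIMM or SLC25A, which gave 74 of 20033 protein-coding genes on chromosomes 1 to 22, X and Y. Of these, 26 were import genes (10 TOMM and 16 TIMM) and 48 were carrier genes (SLC25A). The measurement was chromatin immunoprecipitation followed by sequencing (ChIP-seq) with, per the design text, an antibody to WSTF, a bromodomain protein encoded by BAZ1B that works with ISWI-type chromatin remodelling ATPases. The cells were SW620, an established line from a lymph node metastasis of a human colorectal adenocarcinoma. The series has 2 samples of these cells, SW620-IP and SW620, whose labels share the colon tissue entry, cell line and protocol and name no treatment. The series title mentions WSTF knockdown and the design text overexpression, so whether WSTF was raised, lowered or left alone cannot be told. The design text also speaks of input DNA and biological replicates, but the labels mark neither, and there were no expression values to check the cells or the WSTF level. The result analysed was 1 list of 2697 peak summits, each a single base with a score, and a gene was counted when a summit lay inside it or within 1 kb of either end.

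Nearly all mitochondrial proteins are made in the cytosol. The TOM complex is their entry gate in the outer membrane, small TIM chaperones escort hydrophobic proteins through the intermembrane space, and the TIM23 and TIM22 complexes pass proteins into or across the inner membrane. The SLC25 carriers are among the proteins that TIM22 inserts, and once in place they exchange ADP, ATP, phosphate, organic acids, amino acids and cofactors between the cytosol and the matrix.

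Summits were found at 14 of the 74 genes: 3 import genes (TOMM34, TIMM50 and TIMM22) and 11 carrier genes (SLC25A10, SLC25A11, SLC25A13, SLC25A16, SLC25A22, SLC25A29, SLC25A32, SLC25A35, SLC25A36, SLC25A38 and SLC25A44). Of all protein-coding genes, 13.8% had one. SLC25A44 had 2, so that 15 summits were involved. The pore and receptors of the TOM complex and the ADP/ATP and phosphate carriers had none.

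The promoters of 7 of these genes are printed first, chosen because the summit lay within the 300 bases of the RefSeq promoter window. The window runs from 250 bases before the annotated start to 50 bases after it, so the start is base 251 of the run. Each line is written 5′ to 3′ on the gene's own strand. Capitals mark exact matches, on either strand, to short motifs of factors known at promoters of nuclear genes for mitochondrial proteins or at housekeeping promoters: GGGCGG (SP and KLF factors), CCAAT (NFY), CCGGAAG (ETS factors such as GABPA), TGACGTCA (CREB), CACGTG (the E-box of MYC and USF), AANATGGCG (YY1), GCATGCGC (the NRF1 core) and TCAAGGTCA (ERR receptors). TOMM34 (chr20:44960348-44960647, minus strand) and TIMM50 (chr19:39480588-39480887, plus strand) are the import genes with a summit inside the window. SLC25A44 (chr1:156193854-156194153, plus strand) had the highest score among the carriers. The other carriers are SLC25A36 (chr3:140941586-140941885, plus strand), SLC25A13 (chr7:96322049-96322348, minus strand), SLC25A11 (chr17:4939997-4940296, minus strand) and SLC25A22 (chr11:798232-798531, minus strand). All coordinates are those of GRCh38.p14.
TOMM34: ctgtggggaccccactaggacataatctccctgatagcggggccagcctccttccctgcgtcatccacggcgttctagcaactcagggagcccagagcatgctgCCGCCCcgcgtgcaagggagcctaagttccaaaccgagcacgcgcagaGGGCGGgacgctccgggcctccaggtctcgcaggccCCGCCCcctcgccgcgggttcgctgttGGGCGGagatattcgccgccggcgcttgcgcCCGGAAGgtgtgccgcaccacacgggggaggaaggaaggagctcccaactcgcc
TIMM50: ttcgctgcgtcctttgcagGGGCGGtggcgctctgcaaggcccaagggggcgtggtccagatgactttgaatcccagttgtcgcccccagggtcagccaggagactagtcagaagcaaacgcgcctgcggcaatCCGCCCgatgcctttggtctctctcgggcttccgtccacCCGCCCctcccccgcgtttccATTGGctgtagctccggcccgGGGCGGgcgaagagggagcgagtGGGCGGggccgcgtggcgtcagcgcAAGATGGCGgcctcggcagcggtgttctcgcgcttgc
SLC25A44: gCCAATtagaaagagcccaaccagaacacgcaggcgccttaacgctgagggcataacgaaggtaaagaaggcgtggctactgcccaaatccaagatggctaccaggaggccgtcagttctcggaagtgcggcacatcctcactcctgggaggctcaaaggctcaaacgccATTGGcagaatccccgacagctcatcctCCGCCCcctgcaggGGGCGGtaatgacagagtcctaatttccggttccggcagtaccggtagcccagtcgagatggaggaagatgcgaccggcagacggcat
SLC25A36: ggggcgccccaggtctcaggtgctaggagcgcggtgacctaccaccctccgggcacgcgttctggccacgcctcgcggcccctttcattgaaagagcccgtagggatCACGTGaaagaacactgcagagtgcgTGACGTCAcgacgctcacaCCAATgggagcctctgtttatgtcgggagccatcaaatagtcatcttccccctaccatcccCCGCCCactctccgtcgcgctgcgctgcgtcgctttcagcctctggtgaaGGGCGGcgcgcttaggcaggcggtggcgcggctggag
SLC25A13: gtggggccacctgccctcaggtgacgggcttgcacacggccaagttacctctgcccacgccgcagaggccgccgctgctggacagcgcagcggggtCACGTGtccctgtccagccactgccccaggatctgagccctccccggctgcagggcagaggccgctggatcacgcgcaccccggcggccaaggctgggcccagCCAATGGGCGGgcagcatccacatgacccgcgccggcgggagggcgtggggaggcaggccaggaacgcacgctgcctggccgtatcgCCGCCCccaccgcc
SLC25A11: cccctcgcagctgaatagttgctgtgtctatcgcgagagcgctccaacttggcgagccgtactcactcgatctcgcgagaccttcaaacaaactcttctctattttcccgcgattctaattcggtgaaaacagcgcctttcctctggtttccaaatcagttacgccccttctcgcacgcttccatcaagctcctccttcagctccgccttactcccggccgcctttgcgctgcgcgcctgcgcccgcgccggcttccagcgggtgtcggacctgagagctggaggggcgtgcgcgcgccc
SLC25A22: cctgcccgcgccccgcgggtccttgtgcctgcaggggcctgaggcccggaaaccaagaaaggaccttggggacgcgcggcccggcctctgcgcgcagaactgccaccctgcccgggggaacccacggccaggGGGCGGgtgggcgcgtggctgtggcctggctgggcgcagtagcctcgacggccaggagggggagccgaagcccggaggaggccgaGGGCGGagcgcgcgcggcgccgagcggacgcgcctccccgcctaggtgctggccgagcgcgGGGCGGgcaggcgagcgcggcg

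In these runs the summit was base 233 for TOMM34, 164 for TIMM50, 86 for SLC25A44, 134 for SLC25A36, 194 for SLC25A13, 213 for SLC25A11 and 35 for SLC25A22. SLC25A36 was the only 1 of the 7 with the summit on a motif, the first base of a CREB match at bases 134 to 141. In SLC25A13 the summit lay just before a CCAAT motif at bases 200 to 204, which is followed directly by an SP/KLF motif at bases 205 to 210. In SLC25A22 the nearest match, SP/KLF, began farther off, at base 133, and the SLC25A11 window had no match. TIMM50 had a YY1 match at bases 264 to 272, after its annotated start, and TOMM34 an ETS match at bases 247 to 253, across its start. Matches of different motifs did not overlap in any printed run. A match is a string of letters and does not show that a factor was bound.

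Most import genes had no summit, and neither did most protein-coding genes, of which 13.8% had one. In the small groups below, a lack of summits does not set them apart from that share. The TOM complex had no summit at any of its 7 genes (exact 95% interval up to 41.0%): the pore gene TOMM40, the receptor genes TOMM20, TOMM22 and TOMM70, and the small subunit genes TOMM5, TOMM6 and TOMM7. The nearest summit to a TOM gene lay 15748 bp from TOMM22. It lay 28708 bp from TOMM70, 51600 bp from TOMM40 and 130685 bp from TOMM20. The 6 small TIM chaperone genes (TIMM8A, TIMM8B, TIMM9, TIMM10, TIMM10B and TIMM13) also had none (interval up to 45.9%). TIMM10B was the closest of them, with a summit 7673 bp away, in or within 1 kb of TRIM3, that scored 6.63.

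The 3 import genes with a summit had different parts in import. TOMM34, which encodes a cytosolic protein that binds chaperones and preproteins and is not a subunit of the TOM pore, lies at 44942130 to 44960397 on chromosome 20. Its summit, at 44960415, was 18 bp before the annotated start and scored 6.09 on the −log10 q scale, rank 330 of 2697. This was the highest score at any of the 74 genes, and no other summit of the list had the same value. TIMM50, the receptor of the TIM23 complex for presequences, lies at 39480838 to 39493779 on chromosome 19. Its summit, at 39480751, was 87 bp before the start and scored 4.24, rank 1074. The other genes of the TIM23 group, which are the channel gene TIMM23, its copy TIMM23B, TIMM17A, TIMM17B, TIMM21 and the motor anchor gene TIMM44, had none. TIMM22, the channel of the translocase that inserts the carriers themselves, lies at 997129 to 1003671 on chromosome 17. Its summit, at 996877, was 252 bp before the start and had a low score of 2.16, rank 2419. Its partner TIMM29 had none within 30705 bp, nor did TIMMDC1, a complex I assembly factor gene, within 34875 bp.

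Reads from TIMM23 and TIMM23B, which are near-identical copies, could be divided between them or discarded, so the absence of a summit at either gene is uncertain. The same holds for SLC25A6, which lies in the region shared by the ends of X and Y.

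Of the 11 carrier genes with a summit, 5 encode amino acid carriers. Summits lay at 5 of 9 amino acid carrier genes (55.6%, exact 95% interval 21.2 to 86.3) and at 6 of the other 39 carrier genes (15.4%, 5.86 to 30.5). SLC25A44, a carrier of branched-chain amino acids, had its main summit at position 156193939 of chromosome 1, which is 165 bp before its start, with a score of 4.85. Its second summit, at 156213086 with a score of 4.04, lay 290 bp beyond the other end of the gene, within 1 kb of PMF1 and the PMF1-BGLAP readthrough gene. SLC25A22, a glutamate carrier, had a summit at 798497 on chromosome 11, 216 bp before its outermost start and scoring 3.74. That summit also counted for the neighbouring genes PIDD1 and PANO1. SLC25A13, the aspartate/glutamate carrier citrin of the malate-aspartate shuttle and urea cycle, had one at 96322155 on chromosome 7, 57 bp before its start, with a score of 3.72. SLC25A29, a carrier of basic amino acids, had one at 100306243 on chromosome 14, 201 bp after its start, also with a score of 3.72. SLC25A38, the glycine carrier needed for haem synthesis in red cell precursors, had one at 39384308 on chromosome 3, 938 bp after its start, with a score of 2.57.

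The amino acid carrier genes without a summit were SLC25A12, the paralog of SLC25A13, with the nearest summit 191029 bp away, the ornithine carrier genes SLC25A15 and SLC25A2 (3329565 and 17078 bp), and the glutamate carrier gene SLC25A18 (391643 bp). Some paralogs of like substrate thus differed: SLC25A13 had a summit and SLC25A12 did not, and SLC25A22 had a summit and SLC25A18 did not. The ornithine carrier genes SLC25A15 and SLC25A2 did not differ. The interval of the amino acid class lay above the 13.8% of all protein-coding genes, but it was the only role of those drawn for which this held, and its 9 genes were classed with earlier results known, so no test was made.

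Among carboxylate carriers, 2 of 4 genes had a summit. SLC25A11, the oxoglutarate/malate carrier that completes the malate-aspartate shuttle, had one at 4940084 on chromosome 17, 38 bp before its start, with a score of 3.19. It is shared with RNF167, which is transcribed in the opposite direction from a start less than 1 kb away. SLC25A10, which exchanges malate and succinate for phosphate, had one at 81712210 on the same chromosome, 74 bp before its start, with a score of 2.52. The citrate carrier gene SLC25A1 was not counted, because the summit next to it lay 4034 bp beyond the gene, with a score of 3.13. SLC25A21, an oxodicarboxylate carrier gene, was 851566 bp from a summit.

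Of the 13 carriers of cofactors, nucleotides, glutathione and acylcarnitines, 3 had a summit. SLC25A16, linked to coenzyme A transport, had one at 68527447 on chromosome 10, 76 bp inside the end of the gene, with a score of 4.41. SLC25A36, a pyrimidine nucleotide carrier, had one at 140941719 on chromosome 3, 117 bp before its start, with a score of 4.28. SLC25A32, a folate and FAD carrier, had one at 103415484 on chromosome 8, 377 bp outside the gene and shared with DCAF13, with a score of 3.72. SLC25A20, the carnitine/acylcarnitine carrier gene of fatty acid oxidation, was 513363 bp from the nearest summit. SLC25A35, to which no substrate class was assigned here, was the remaining carrier gene, with a summit at 8295530 on chromosome 17, 130 bp outside the gene and scoring 2.16.

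The carriers of the energy currency were without summits. None of the 9 genes for ADP/ATP, phosphate and ATP-Mg/phosphate carriers had one (exact 95% interval up to 33.6%). That interval includes the 13.8% of all protein-coding genes. The nearest summit was 53740 bp from SLC25A4, 320092 bp from SLC25A5, 199299 bp from SLC25A6 and 77359 bp from the phosphate carrier gene SLC25A3. No summit was found at the 2 mitoferrin genes, SLC25A28 and SLC25A37, which encode iron importers, or at the 3 genes related to uncoupling proteins (SLC25A14, SLC25A27 and SLC25A30).

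**Figure D1:**
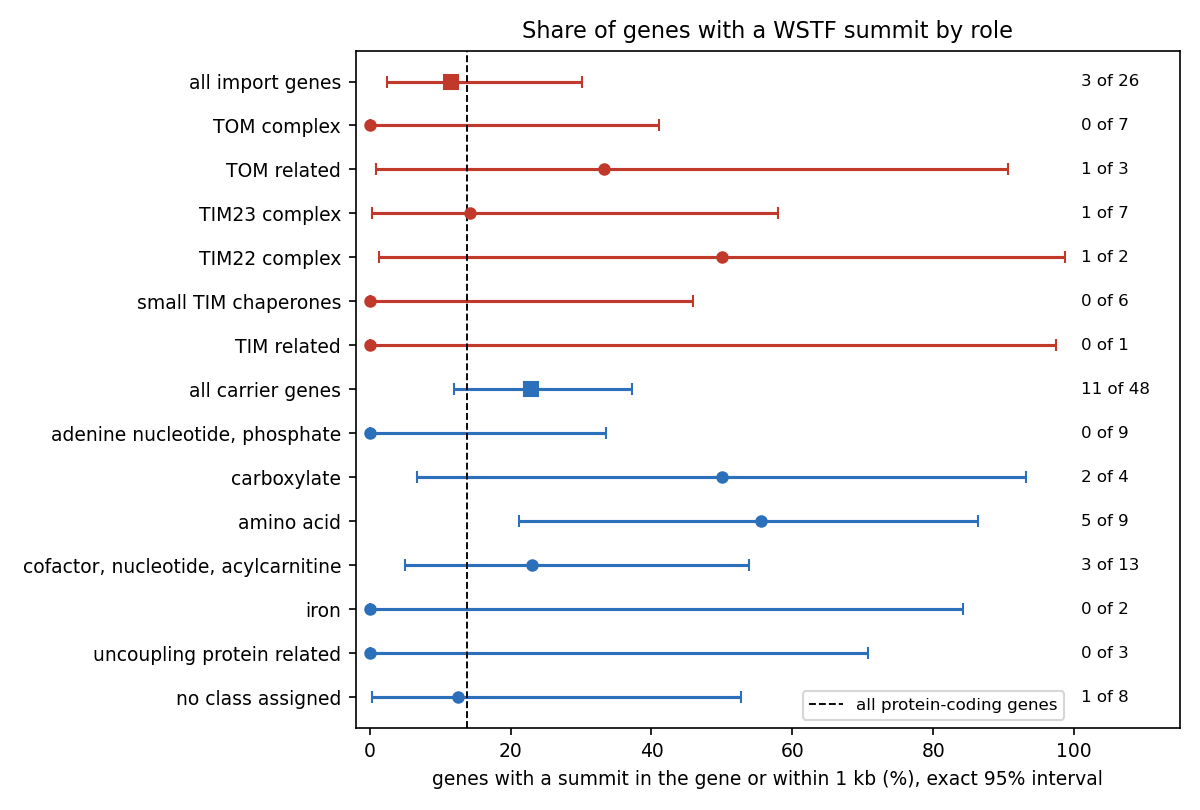
Percentage of genes counted as having a summit (inside or up to 1 kb away), by role, with import genes in red above carrier genes in blue. Squares are the whole groups, circles the roles, bars exact 95% intervals, and the dashed line all protein-coding genes (13.8%); amino acid carriers stand at 5 of 9 and the TOM complex at 0 of 7.

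The import machinery and the carriers were compared by these shares. A summit was present at 3 of 26 import genes (11.5%, exact 95% interval 2.45 to 30.2) and at 11 of 48 carrier genes (22.9%, 12.0 to 37.3). Over all members the share was 14 of 74 (18.9%, 10.7 to 29.7), and over all protein-coding genes it was 2765 of 20033, or 13.8%. The intervals of the import genes, the carriers and the members as a whole each included 13.8%, so none of the shares was separated from the background by its interval. The difference, import minus carriers, was −11.4 percentage points with a 95% Newcombe interval of −26.9 to 8.53, which includes 0. These intervals treat genes as independent draws, cover counting error only and carry no replicate error, because a single list was analysed. Import genes were also shorter, with a median length of 10.9 kb against 26.8 kb for carrier genes and 24.1 kb for all protein-coding genes. Counting summits within 1 kb of a gene end alone, which leaves out the gene body, gave the same 3 of 26 and 11 of 48, against 11.6% of all protein-coding genes. Under that count the carrier interval, 12.0 to 37.3, lay just above 11.6%, while the import and member intervals included it. Stricter counts went both ways. A summit at or above the median score was present at 9 of 74 members (12.2%, 5.71 to 21.8), against 7.32% of all protein-coding genes. Counts inside the gene and among the highest scores put the members' share below the background. A summit inside the gene itself was present at 3 of 74 members (4.05%, exact 95% interval 0.844 to 11.4), against 8.12% of all protein-coding genes. A summit among the top 25% by score was present at 1 of 74 members (1.35%, 0.0342 to 7.3), against 3.62%. The intervals of the median-score, inside-gene and top 25% counts each included the share of all protein-coding genes under the same count. Counting only summits within 1 kb of an annotated RefSeq start gave 3 of 24 import genes and 8 of 40 carrier genes, against 12.9% of all protein-coding genes that have such a start.

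Chromosome moved with the count. Chromosome 17 held 6 of the 74 genes, of which TIMM22, SLC25A10, SLC25A11 and SLC25A35 had a summit. Of all 1169 protein-coding genes there, 244 (20.9%) had one. Chromosome 11 had the same share (272 of 1301, 20.9%), with a summit at 1 of its 5 members. The members with a summit were 1 of 4 on chromosome 10 (18.0% of its protein-coding genes). They were 0 of 2 on chromosome 13 (19.2%) and 1 of 1 on chromosome 20 (27.2%). Chromosome X held 7 of the genes with no summit, and 40 of its 848 protein-coding genes (4.72%) had one. Chromosome 18 had 11 summits in all and chromosome 4 had 50, and none lay at their 4 member genes, TIMM21 and SLC25A52 on 18 and SLC25A4 and SLC25A31 on 4. Few protein-coding genes there had one, 12 of 270 (4.44%) on 18 and 53 of 769 (6.89%) on 4. Outside chromosome 17, a summit was present at 10 of 68 members (14.7%) and at 13.4% of protein-coding genes. When each gene was given the share of its own chromosome, the mean was 13.9% for import genes and 13.1% for carrier genes. The part of chromosome in the difference between the groups was not tested further.

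**Figure D2:**
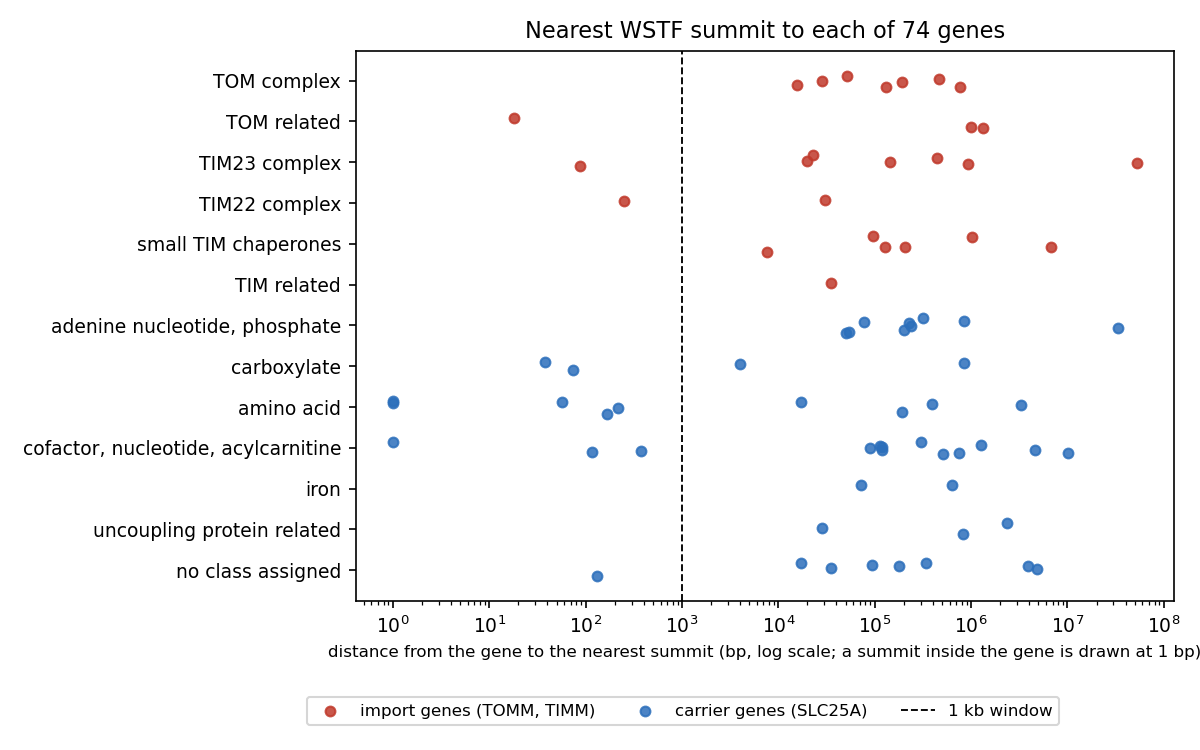
Distance in bp, on a log scale, from each of the 74 genes to the nearest summit, by role, with import genes in red above carrier genes in blue; a summit inside the gene is drawn at 1 bp and the dashed line is the 1 kb window. The 14 genes left of the line end at 377 bp (SLC25A32), and the next is SLC25A1 at 4034 bp.

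The 1 kb window fell in an empty stretch of distances. The farthest counted gene, SLC25A32, had its summit 377 bp outside, and the closest uncounted genes were SLC25A1 at 4034 bp and TIMM10B at 7673 bp. Of the genes with a counted summit, TOMM34, SLC25A11 and SLC25A10 each had a further summit within 10 kb, 5974, 7994 and 8473 bp away, at STK4, at PFN1 and ENO3, and at MRPL12. The other 58 genes without one lay more than 10 kb from any summit, 40 of them more than 100 kb. The median distance from a gene to its nearest summit was 129 kb for import genes and 118 kb for carrier genes, against 184 kb for the 19970 protein-coding genes on chromosomes with summits.

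Most summits with a listed start sat close to it. The same share was not computed for other genes with a summit, so whether this is particular to these genes is not known. Annotated RefSeq starts were available for 64 of the 74 genes, and for 12 of the 15 summits. Of these 12, 9 lay upstream of the start and 3 downstream, with a median signed distance of −65.5 bp, where negative means before the start. Within 300 bp of a start lay 10 of the 12. The exceptions were the summit 938 bp into SLC25A38 and the second summit of SLC25A44 beside PMF1. SLC25A38 has a non-coding neighbour, LOC105377644, that starts in the opposite direction within 1 kb and also took that summit. Measured from the nearer end of the gene, with no regard to strand, the 15 summits lay 18 to 938 bp away, with a median of 130 bp.

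**Figure D3:**
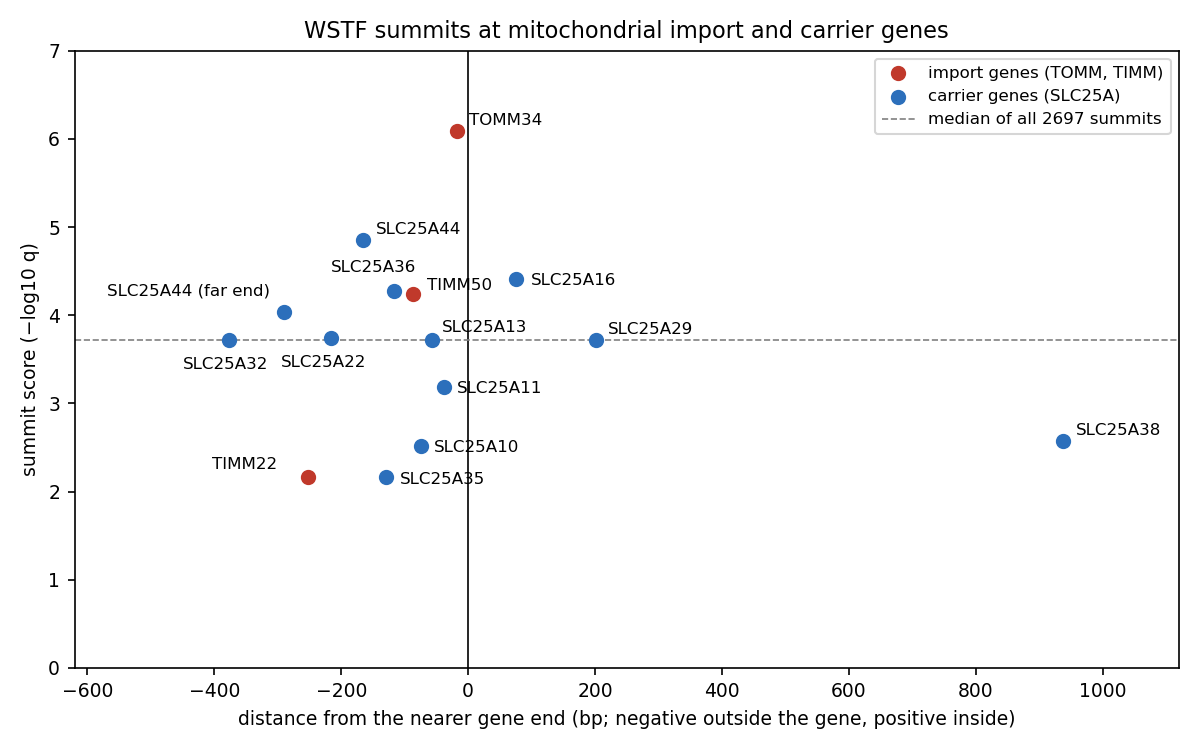
Each of the 15 summits by its distance in bp from the nearer gene end (negative outside the gene, positive inside) and its score (−log10 q), with import genes in red and carrier genes in blue. TOMM34 stands highest at 6.09, and the dashed line is the median of all summits, 3.72.

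Scores at these genes were ordinary for the list. The 15 scores ran from 2.16 to 6.09 with a median of 3.72, and the 2697 scores of the list ran from 1.31 to 5480 with a median of 3.72. Of the 15, 7 were above the list median, 3 equalled it and 5 were below, and none was in the top 10% of the list. The import summits scored 2.16, 4.24 and 6.09. The carrier summits ran from 2.16 to 4.85, so both groups started at the same value and overlapped. Scores were often tied: SLC25A13, SLC25A29 and SLC25A32 shared their value with 84 summits in all, and TIMM22 and SLC25A35 shared theirs with 15. The order of genes with equal scores is therefore undefined.

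**Figure D4:**
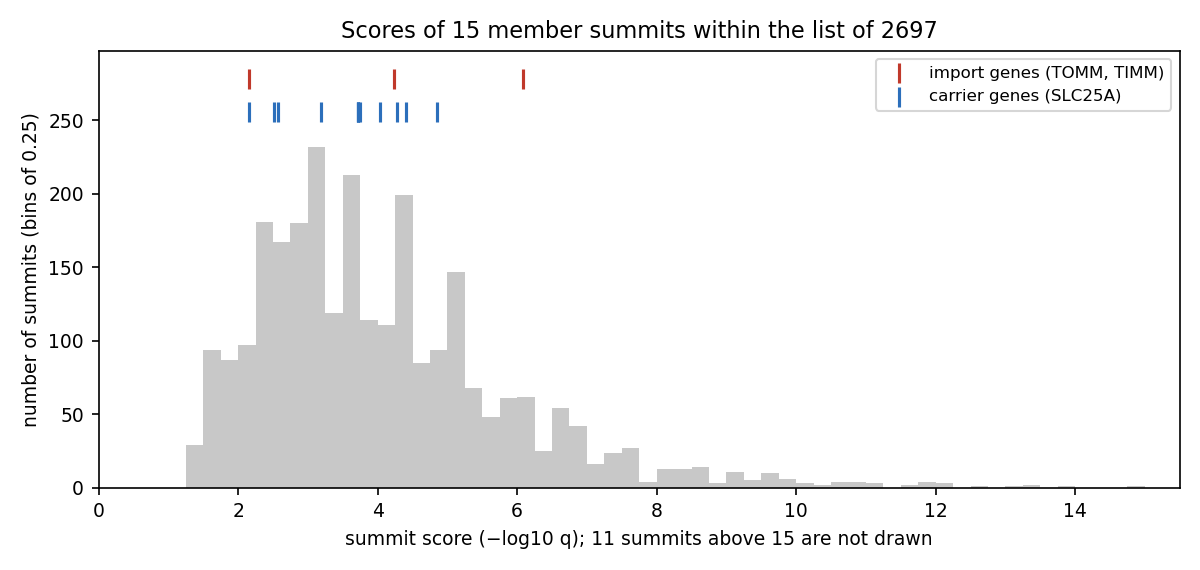
Number of summits per score bin of 0.25 (−log10 q) for the list of 2697, in grey, with a red tick for each import summit and a blue tick for each carrier summit. The ticks lie between 2.16 and 6.09, within the bulk of the list; 11 summits above 15 are not drawn.

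Promoters of the marked and unmarked genes were compared in composition, using the first listed start of each gene. The median GC content was 68.3% for the 11 members with a summit, 65.0% for the 53 without and 62.7% for all 15842 protein-coding promoters. Over the 2316 promoters of all genes with a summit it was 68.0%. The ratio of observed to expected CpG was 0.889 and 0.895 at the median for members with and without a summit, against 0.763 for all promoters. Over all genes with a summit the median ratio was 0.872. Members with and without a summit thus had like CpG ratios, both near that of all genes with a summit and above that of all promoters.

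Motifs were then counted in the same promoters. The SP/KLF motif was in 9 of 11 promoters of members with a summit and 34 of 53 of members without. This compares with 75.6% of all protein-coding promoters of genes with a summit and 58.5% of all protein-coding promoters. The summit need not lie in the promoter window. CCAAT was in 7 of 11 and 20 of 53, against 35.6% and 36.4% in the same order. The ETS motif was in 2 of 11 and 18 of 53, against 20.3% and 14.2%. The E-box was in 3 of 11 and 7 of 53, against 12.1% and 8.88%. CREB, YY1 and the NRF1 core were each in at most 3 promoters of either set, and ERR in none. By group, the ETS motif was in 12 of 24 import promoters and 8 of 40 carrier promoters. The NRF1 core was in 3 of 24 import promoters and 0 of 40 carrier promoters, against 4.26% of all. These are counts of letters, with no test, and no match says only that the letters are absent from the window.

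Divergent neighbours were also counted. A start on the opposite strand within 1 kb upstream was present for 2 of 11 members with a summit (SLC25A11 and SLC25A38) and 17 of 53 without one, which include TOMM22, TOMM70, TIMM9 and SLC25A5. Among all protein-coding genes with a start, 22.1% had such a neighbour, and among those with a summit 33.9%.

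Other genes of mitochondrial import and transport, whose symbols fall outside the rule, were examined from a list by role. Of 24 further import genes, 7 had a summit (29.2%, exact 95% interval 12.6 to 51.1), against 13.8% of all protein-coding genes. GFER, the sulfhydryl oxidase of the intermembrane space relay, had the highest score, 4.94, with a summit 14 bp after its start at position 1984207 of chromosome 16. HSPA9, the matrix chaperone that drives the import motor, scored 4.93, with a summit 90 bp before its start. AIFM1, which binds the relay protein encoded by CHCHD4, scored 4.18, with a summit 274 bp before its start that also counted for RAB33A. MTCH1, an outer membrane protein related to the SLC25 family, scored 3.40, with its summit at an annotated start. MTX2, of the sorting and assembly machinery, scored 3.19, at 23 bp after the start. HSPD1 and HSPE1, the matrix chaperonin and its lid, share a single summit that scored 2.16 and lay 166 bp after the HSPD1 start. The 6 genes for presequence processing, PMPCA, PMPCB, MIPEP, XPNPEP3, IMMP1L and IMMP2L, had none.

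Of 21 further transport genes, 5 had a summit (23.8%, 8.22 to 47.2), against 13.8% of all protein-coding genes. All 3 porin genes, which encode the outer membrane channels that feed the carriers, were among them. VDAC2 scored 4.44 with a summit 229 bp before its nearest start, VDAC3 scored 2.97 with one 182 bp outside the gene and shared with DKK4, and VDAC1 scored 1.95 with one 537 bp after its nearest start. The other genes were MICU2 (4.44) and SMDT1 (3.16), which encode parts of the calcium uniporter. None was found at the 3 genes of the pyruvate carrier family, the 5 sideroflexin genes or UCP1, UCP2 and UCP3.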

How the data were processed

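The deposited file is a list of summits from ChIP-seq of SW620 cells. Per the submitters' processing notes, the authors used Trimmomatic 0.39, Bowtie2 2.4.4 and MACS2 2.2.7.1 with build hg38, and per the design text peaks were called against input DNA. The sources used here do not say whether replicates were pooled or how reads with several matches were treated. The deposited score was read as −log10 of the q-value, because its lowest value, 1.31, is just above the 1.30 of a q of 0.05. It is the authors' value and was used only to describe and rank summits within the list. The list has no reads, so depth is unknown and no comparison between samples was possible.

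Summits were matched to RefSeq GRCh38.p14 genes (Python 3.11.15, pandas 2.3.3), whose chromosome coordinates are those of hg38. Annotated starts and promoter sequences came from the RefSeq promoter table, which matched 64 of the 74 genes; 3 genes with a summit were not matched. A further promoter sequence is not reported here. Signed distances use the nearest listed start. The matching step was tested on simulated summits. Shares carry exact Clopper-Pearson intervals (scipy 1.17.1) and the difference of shares a Newcombe interval (statsmodels 0.14.6). No significance test was made, since genes are not replicates of a condition. Every member with a summit is named; of the others, those with a summit within 10 kb, near-identical copies and defining genes of each role are named, and further genes named to complete a role were chosen after their values were seen. Of the 121 genes of the role lists, 119 matched a protein-coding gene. The members, lists and motifs were chosen with earlier results of these data known. Alternatives were the window, the score threshold, shared summits and the membership.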

Additional observations from a re-analysis of the deposited data

How the results depend on the processing

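Of 44 alternative values, 38 stayed within the interval or spread of the reported value, but some of these could not have moved. Leaving out import genes cannot change the carrier share, and the 3 highest summits of the list lie at none of these genes. All 15 summits lay within 938 bp of a gene end, so counting ends alone had to repeat the values. For the difference, any negative value down to −26.9 percentage points counted as unchanged. The count of 38 is therefore no measure of robustness. Counting summits inside the gene alone gave 0.0% of import genes, 6.25% of carrier genes and 4.05% of all members, against 8.12% of all protein-coding genes. Using the top 25% of summits by score gave 3.85% of import genes, 0.0% of carrier genes and 1.35% of all members, against 3.62% of all protein-coding genes, and turned the difference of import minus carriers to 3.85 percentage points, resting on TOMM34 alone. At or above the median score, 12.2% of members had one, against 7.32%. In the other alternatives the difference stayed negative, between −13.5 (5 kb window) and −5.13 (without summits shared with another protein-coding gene, where 8 of 48 carrier genes were counted). Without chromosome 17, an alternative chosen after seeing the data together with the one on annotated starts, it was −10.6. The median score stayed at 3.72 and the median distance to the start at −65.5 bp in the alternatives run. No paired analysis was possible because there is 1 list and it has no replicates. Depth cannot be read from it, so WSTF may be present at genes that had no summit.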
